A study of Mus musculus with 24 samples.

Results

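Growth hormone acts on hepatocytes through its receptor, Ghr, and the receptor-bound kinase Jak2, which activates the transcription factors Stat5b and Stat5a. Stat5 proteins switch on Igf1 and Igfals, which carry the growth signal into the blood, and the feedback inhibitors Socs2 and Cish, and they repress Bcl6, a transcriptional repressor of female-biased genes in mouse liver. Growth hormone is released in pulses, which are sharper in male than in female rodents. These 9 genes were followed in mouse liver through every probe that carries 1 of their names, which is 9 of 27597 names on the array and 20 of 41174 probes. A filter kept 19 of them, and 27825 probes in all, by asking that Cy3 stand well above background on 4 or more of the 24 arrays. The probe left out was the Jak2 probe A_52_P309376, well above background in Cy3 on 3 arrays. An Igf1 probe, A_52_P351116, bears that name only in the most recently annotated scanner file.

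Liver RNA of C57Bl/6J mice fed freely was hybridised on 2-colour Agilent arrays against a pool of 10-week livers of both genotypes. The mice were Mop3fxfxCreAlb, with a floxed Mop3 (Arntl, or Bmal1, the clock's central activator) and Cre recombinase under the albumin promoter, which is active in hepatocytes, or Mop3fxfx controls with the floxed gene and no Cre. The groups were Mop3fxfxCreAlb at 20 weeks, Mop3fxfx at 20 weeks, Mop3fxfxCreAlb at 10 weeks and Mop3fxfx at 10 weeks, here Cre and floxed livers, with 6 arrays each, at ZT0, ZT4, ZT8, ZT12, ZT16 and ZT20, where ZT0 is lights on. Each array held pooled RNA of at least 3 mice, so an array is a pool and not a mouse, and each genotype, age and time had 1 array. There was no group with Cre alone, so Cre and the loss of Mop3 cannot be told apart, and the labels used here do not give the sex of the mice. In whole liver, fewer cells of a type and less RNA per cell cannot be told apart.

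The share of probes well above background in Cy5 was 56.7 to 70.3% per array. Arntl and its target Dbp had amplitudes of 0.22 and 0.81 in Cre livers, against 1.69 and 2.18 in floxed livers (log2, distance from mean to peak). The difference in rhythm was called for Arntl (limma adjusted p = 0.0308) and not for Dbp (adjusted p = 0.143). The 20-week floxed array at ZT4 stood apart. It alone held Xist, the RNA of the inactive X chromosome, at a log2 ratio of 4.35, against -0.20 to 0.10 on the 23 other arrays, while Y-linked genes were above background on all 24. Of 17 measured female-biased liver genes, 12 had their highest value on that array. The 10-week Cre array at ZT16 was the only one on its slide.

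For Ghr, Igf1 and Igfals, probes that lie in the coding part of the transcript are shown here as deposited in the scanner files, because they tell which part of each product was measured. Each 60-base probe holds a reading frame without a stop codon. Both Ghr probes lie in the part that codes for the hormone-binding extracellular domain, the Igf1 probe lies in the part for the mature hormone, and the Igfals probe in the leucine-rich repeats.
Ghr A_52_P680935: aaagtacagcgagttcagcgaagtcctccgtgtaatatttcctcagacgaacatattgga
Ghr A_52_P680941: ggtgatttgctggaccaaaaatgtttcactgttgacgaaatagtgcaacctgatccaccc
Igf1 A_52_P536434: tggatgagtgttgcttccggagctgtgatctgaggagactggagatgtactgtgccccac
Igfals A_51_P277088: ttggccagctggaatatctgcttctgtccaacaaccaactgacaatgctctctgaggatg

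RefSeq promoters (build GRCm38.p6, 250 bases upstream of each start) were present for 8 of the 9 genes, with 14 start sites. The gene without an entry was Socs2, whose promoter was therefore not searched. A match to TTCNNNGAA, the letters of the Stat5 binding site, was found on either strand upstream of 2 genes, Igfals and Bcl6. Of all promoters 7.02% hold one, and counted by gene, over all starts, 2197 of 27025 genes do. CACGTG, the E-box to which Arntl binds, stood only upstream of Bcl6 (6.02% of all promoters, 1854 genes). TTACGTAA, the D-box bound by Dbp, stood upstream of none (0.113%, 32 genes). AGGTCA, a half-site bound by ROR and REV-ERB receptors, stood upstream of 4 genes, Stat5a, Stat5b, Igf1 and Igfals (14.0% of all promoters, 4260 genes). These are matches of letters in this window and not measured binding. The promoters of Bcl6, Igfals and Cish are shown because Bcl6 and Cish were among the most variable members and Igfals is the other gene with a match to TTCNNNGAA. Capitals mark TTCNNNGAA and CACGTG. They lie on chr16:23988853-23989102 (minus strand), chr17:24877594-24877843 (plus strand) and chr9:107296409-107296658 (plus strand). The second start of Bcl6 had 3 such matches, TTCCTGGAA, TTCTGTGAA and TTCCGGGAA, whose first bases lie at -168, -122 and -88 from that start, and the second start of Igfals had TTCCTAGAA with its first base at -58.
Bcl6: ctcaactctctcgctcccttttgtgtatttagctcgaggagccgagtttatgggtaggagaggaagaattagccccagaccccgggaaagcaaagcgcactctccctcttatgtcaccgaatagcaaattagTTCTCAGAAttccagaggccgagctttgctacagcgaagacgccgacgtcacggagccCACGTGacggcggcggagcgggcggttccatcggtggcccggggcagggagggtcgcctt
Igfals: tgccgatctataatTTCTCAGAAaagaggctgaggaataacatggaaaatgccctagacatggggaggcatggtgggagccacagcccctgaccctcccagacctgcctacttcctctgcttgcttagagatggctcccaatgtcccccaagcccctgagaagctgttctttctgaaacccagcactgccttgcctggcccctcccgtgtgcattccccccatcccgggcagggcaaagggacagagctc
Cish: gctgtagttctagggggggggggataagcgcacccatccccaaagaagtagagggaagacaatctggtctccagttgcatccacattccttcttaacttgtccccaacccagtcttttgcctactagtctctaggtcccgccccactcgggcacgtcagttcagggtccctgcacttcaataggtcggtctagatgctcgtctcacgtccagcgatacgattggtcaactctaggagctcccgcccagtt

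The first comparison asked which members differed in level between Cre and floxed livers over the whole day. Stat5b was the clearest. Its brightest probe was higher in Cre livers by 0.39 ± 0.058 on the log2 scale (SE of the fit, n = 12 arrays per genotype, limma adjusted p = 9.9e-05), and the Cre array was higher in 12 of 12 pairs of 1 age and time. Bcl6 was also higher (0.94 ± 0.33, adjusted p = 0.0489) and the Ghr probe A_52_P680941 lower (-0.26 ± 0.078, adjusted p = 0.0224). In all 3 of 19 probes were called, 15.8%, against 21.8% of all probes, so the share lay below the background. By direction 2 were higher and 1 lower, where 10.6% of all probes were higher and 11.1% lower. The median of the 19 differences was 0.061 and that of all probes -0.006.

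The direction of these signed values is the opposite of the labelled one, in which the livers carry Cy3 and the pool Cy5. Cy5 was the more variable channel for 79.8 to 96.4% of probes within the slides that held more than 1 array, and over the floxed arrays Dbp ranged over 4.83 log2 units in Cy5 and 0.458 in Cy3. Every ratio is therefore Cy5 over Cy3, read as liver over pool. With the dyes as labelled each sign turns and each peak moves by 12 h, while sizes, p-values and totals stay. Over all probes, no pair of arrays correlated below -0.26.

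**Figure D1:**
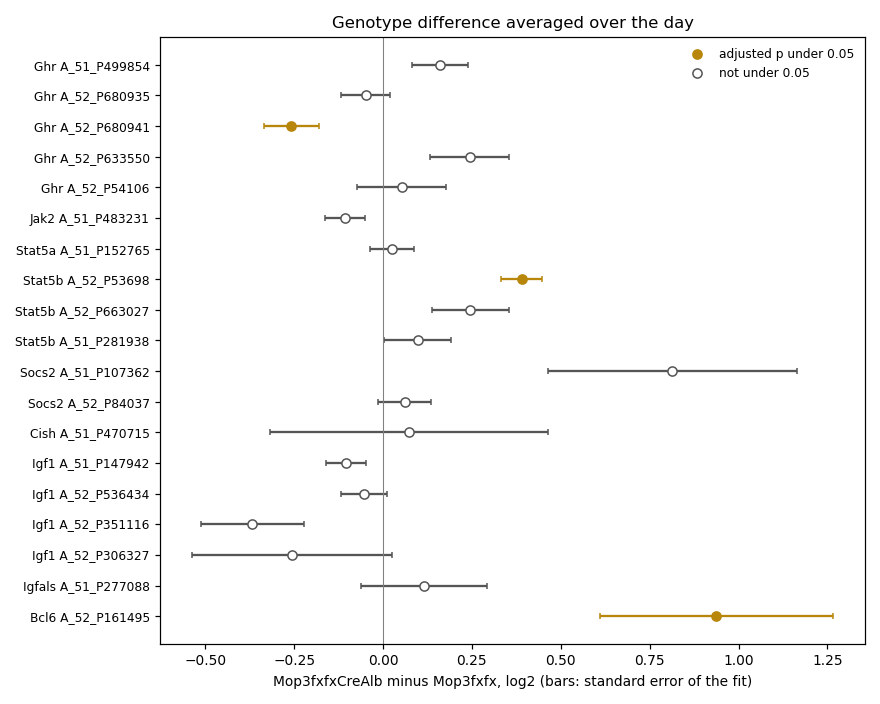
Genotype difference of the 19 kept member probes, Mop3fxfxCreAlb minus Mop3fxfx averaged over the day (horizontal axis, log2), with bars for the fitted standard error (24 arrays). Filled points are the 3 probes with a limma adjusted p under 0.05, Stat5b A_52_P53698 (0.39), Bcl6 (0.94) and Ghr A_52_P680941 (-0.26), and the bars of Socs2, Cish and Bcl6 are the widest.

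Stat5b encodes the main Stat5 protein of hepatocytes. At 20 weeks its log2 ratio ran from -0.15 through a median of -0.04 to 0.21 in Cre livers and from -0.72 through -0.40 to 0.03 in floxed livers. At 10 weeks it ran from 0.09 through 0.35 to 0.49 in Cre livers and from -0.38 through -0.14 to 0.42 in floxed livers. The ranges of the genotypes overlapped at both ages, and the floxed livers came closest to the Cre livers at ZT4 and ZT20. Within the 4 slides that held both genotypes the Cre arrays were higher by 0.39, 0.38, 0.33 and 0.48. The last of these slides set Cre livers at ZT0 and ZT4 against floxed livers at ZT16 and ZT20, so genotype and time of day cannot be told apart there. Over the 5 pairs on 1 slide, all of 10 weeks, the difference ran from 0.07 to 0.69, and over the 7 other pairs from 0.13 to 0.66. The 2 dimmer Stat5b probes differed by 0.25 (A_52_P663027, adjusted p = 0.11) and 0.10 (A_51_P281938, adjusted p = 0.49), in the same direction and not past the test. With median centring in place of loess the brightest probe differed by 0.17 (adjusted p = 0.594), and with the 10-week arrays alone by 0.38 (adjusted p = 0.0509). Median centring also ended the calls of Bcl6 (0.72, adjusted p = 0.341) and Ghr A_52_P680941 (-0.48, adjusted p = 0.235), and it moved the median of all probes to -0.322 for the genotype difference at ZT8 and to 0.252 for the age difference.

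At single times Stat5b was called at 2 of 6. Cre livers were higher by 0.65 ± 0.10 at ZT8 (adjusted p = 0.0124) and by 0.67 ± 0.10 at ZT12 (adjusted p = 0.0073), with means of 0.18 and 0.12 in Cre livers and -0.46 and -0.55 in floxed livers. At ZT16 the difference was 0.51 ± 0.10 (adjusted p = 0.056), and at ZT0, ZT4 and ZT20 it was 0.27, 0.13 and 0.11. Among the 19 member probes these were the only calls at any of the 6 times, when 0.37% of all probes were called at ZT8 and 0.428% at ZT12. With the slide as a block the values at ZT8 and ZT12 were 0.65 and 0.67, with adjusted p of 0.0733 and 0.0538, and with the deposited log ratio 0.64 and 0.70, with adjusted p of 0.221 and 0.0852. Median centring gave -0.048 at ZT8 and 0.58 at ZT12, without a call.

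Daily rhythm was tested next. In Cre livers the amplitudes were 0.13 ± 0.058 for Stat5b and 0.05 ± 0.062 for Stat5a, and limma called 0 of 19 members and 0% of all probes, with 1 member and 2400 probes at an unadjusted p under 0.05. In floxed livers 2 of 19 member probes were called rhythmic, 10.5%, against 1.4% of all probes. There the brightest Stat5b probe had an amplitude of 0.32 ± 0.058 with its peak at ZT 1.02 (limma adjusted p = 0.0119), and Stat5a, its close relative on the same chromosome, an amplitude of 0.29 ± 0.062 with its peak at ZT 22.8 (adjusted p = 0.0473). The 2 dimmer Stat5b probes were not called, with amplitudes of 0.22 ± 0.11 (A_52_P663027, adjusted p = 0.589) and 0.11 ± 0.093 (A_51_P281938, adjusted p = 0.880). In floxed livers the brightest Stat5b probe was lowest at ZT12 at both ages, and Stat5a was lowest at ZT12 at 20 weeks and at ZT16 at 10 weeks. The difference in rhythm between the genotypes was called for 0 of 19 members by limma and for 0.0288% of all probes, with 2 members and 802 probes at an unadjusted p under 0.05, so a loss of these rhythms was not shown. The Stat5a call was lost in 17 of 24 cases when 1 array was left out, and without the 2 arrays that stood apart (amplitude 0.28, adjusted p = 0.0772). Of the arrays left out singly, the one whose absence ended the Stat5b call was the 20-week floxed array at ZT12 (0.32, adjusted p = 0.0504). Both calls were also lost with median centring (0.29 for Stat5b, adjusted p = 1), with the deposited log ratio (0.33, adjusted p = 0.0709), at 20 weeks alone (0.31, adjusted p = 0.423) and at 10 weeks alone (0.34, adjusted p = 0.494).

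**Figure D2:**
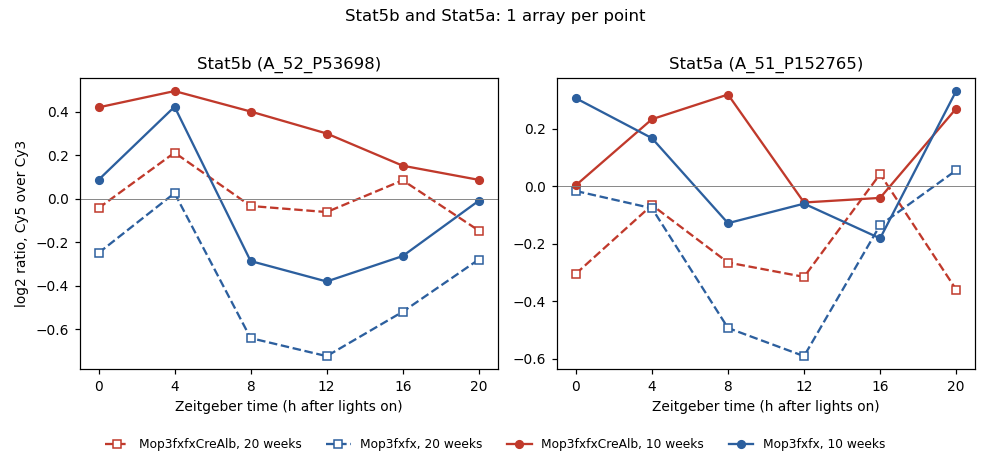
Log2 ratio of the Stat5b and Stat5a probes by zeitgeber time (h after lights on), 1 array per point, for Mop3fxfxCreAlb (red) and Mop3fxfx (blue) at 20 weeks (open squares) and 10 weeks (filled circles). At ZT12 Stat5b was at -0.06 in Cre and -0.72 in floxed livers of 20 weeks, and at 0.30 in Cre and -0.38 in floxed livers of 10 weeks, the lowest values of both floxed series.

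The receptor was measured by 5 probes, whose genotype differences over the day ran from -0.26 to 0.24. The probe A_52_P680941, in the extracellular part, was lower in 9 of 12 pairs, and at 20 weeks it ran from -0.08 through 0.02 to 0.15 in Cre livers and from 0.27 through 0.50 to 0.59 in floxed livers, without overlap. At 10 weeks it ran from -0.50 through -0.34 to -0.08 in Cre livers and from -0.42 through -0.31 to 0.14 in floxed livers, with overlap. The share of all probes without overlap was not counted. At 20 weeks the floxed arrays of ZT0 to ZT12 lay on the same slide. The Cre arrays of ZT8 to ZT20 lay on another, scanned on another day. No Cre and floxed array of the same time shared a slide at 20 weeks, so genotype and slide cannot be told apart in those pairs. The difference between the ages in the genotype effect was -0.37 (adjusted p = 0.0799), so it was not shown to differ. The other probe in the extracellular part differed by -0.05 (A_52_P680935, adjusted p = 0.65), the brightest by 0.16 (A_51_P499854, adjusted p = 0.15), and the last pair by 0.24 (A_52_P633550) and 0.05 (A_52_P54106). With the slide as a block the difference of A_52_P680941 was -0.08 (adjusted p = 0.706), and without the 2 arrays that stood apart it was -0.25 (adjusted p = 0.0535). Within slides it was 0.14, 0.02, -0.56 and, on the slide with different times for the genotypes, -0.39. Jak2, the kinase on the receptor, lay between -0.13 and 0.49 in Cre livers and between -0.09 and 0.53 in floxed livers. Its median was 0.26 in Cre and 0.43 in floxed livers of 20 weeks, and 0.009 and 0.033 at 10 weeks. The genotypes differed by -0.11 ± 0.056 (adjusted p = 0.18). Stat5a differed in level by 0.02 ± 0.062 (adjusted p = 0.82).

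Socs2 and Cish, which encode inhibitors that end the growth hormone signal, varied more than nearly all other probes. After genotype, age and a 24 h rhythm were fitted, the spread left between arrays was 1.03 for Cish and 0.93 for Socs2 (SD, log2), the 99.92nd and 99.87th percentiles of all probes, whose median was 0.195. Bcl6 lay at the 99.71st percentile with 0.83, the Igf1 probe A_52_P306327 at the 99.25th with 0.74 and Igfals at the 95.8th with 0.47. In contrast, Stat5b (0.14), Jak2 (0.13) and Stat5a (0.15) lay below the median. The spread of Cish stood in Cy5, with an SD of 1.02 over the 24 arrays (98.44th percentile), against 0.14 in Cy3 (48.54th), each channel quantile normalised. For Socs2 it was 0.996 in Cy5 (98.36th percentile) and 0.36 in Cy3 (95.21st), so in both channels this probe varied more than most. For Bcl6 it was 0.85 in Cy5 (97.5th) and 0.18 in Cy3 (67.63rd).

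Cish was lowest at ZT0 in 2 of the 4 series and not in the others. At 20 weeks its log2 ratio ran from -2.78 at ZT0 through -0.62 to 1.30 at ZT20 in Cre livers, and from -0.85 through -0.53 to -0.24 in floxed livers. At 10 weeks it ran from -1.20 through -0.35 to 0.71 in Cre livers and from -2.92 at ZT0 through -0.16 to 0.52 in floxed livers. The groups overlapped throughout, the difference over the day was 0.07 ± 0.39 (adjusted p = 0.92), and the Cre array was higher in 6 of 12 pairs. Socs2 was at -1.99 in Cre livers and -1.86 in floxed livers at ZT0 of 20 weeks, and at 0.81 in Cre livers and -1.80 in floxed livers at ZT0 of 10 weeks, so it was low at ZT0 in 3 of the 4 series. It was higher in Cre livers by 0.81 ± 0.35 over the day, without a call (adjusted p = 0.104), and in 8 of 12 pairs. A dimmer Socs2 probe, A_52_P84037, differed by 0.06 (adjusted p = 0.60).

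**Figure D3:**
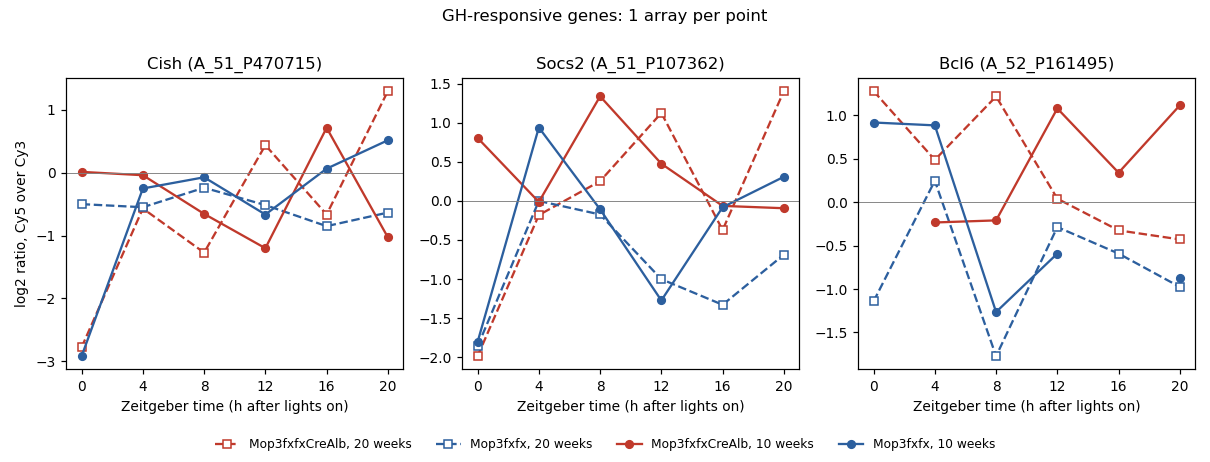
Log2 ratio of the Cish, Socs2 and Bcl6 probes by zeitgeber time (h after lights on), 1 array per point, for Mop3fxfxCreAlb (red) and Mop3fxfx (blue) at 20 weeks (open squares) and 10 weeks (filled circles). The lines cross. Cish stood at -2.78 at ZT0 and -0.57 at ZT4 in 20-week Cre livers and at -2.92 and -0.25 in 10-week floxed livers, and 2 Bcl6 points without a usable spot are missing.

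Bcl6 was higher in 9 of the 10 pairs in which both arrays could be used. The spot was marked as an outlier on the 10-week Cre array at ZT0 and the 10-week floxed array at ZT16, which left 22 arrays. At 20 weeks it ran from -0.43 through 0.26 to 1.28 in Cre livers and from -1.77 through -0.78 to 0.25 in floxed livers. At 10 weeks it was -0.23, -0.21, 1.08, 0.34 and 1.12 in Cre livers from ZT4 to ZT20, against 0.92, 0.88, -1.27, -0.59 and -0.87 in floxed livers at ZT0, ZT4, ZT8, ZT12 and ZT20. The groups overlapped at both ages, and the floxed livers of 10 weeks were high at ZT0 and ZT4 only. The call stood near the threshold. Leaving out 1 array ended it in 17 of 24 cases, with a difference between 0.79 and 1.09 and an adjusted p of up to 0.0951, and with the slide as a block it was 1.14 (adjusted p = 0.161). Within slides the difference was 1.52, 0.28 and, on the slide with different times for the genotypes, 1.67.

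Igf1 encodes the hormone that carries much of the growth hormone effect, and Igfals the subunit that holds it in the circulation. Neither differed in level between genotypes past the test. The brightest Igf1 probe, with 10 spots per array, differed by -0.10 ± 0.056 (adjusted p = 0.19). But at least 5 of its spots were saturated in Cy5 on 5 Cre and 6 floxed arrays, where its values stand at the upper limit of the scanner. At least 5 were also saturated in Cy3 on 5 arrays, and 16 arrays held at least 1 saturated Cy5 spot. The unsaturated probe in the mature hormone differed by -0.05 ± 0.065 (adjusted p = 0.60), A_52_P351116 by -0.37 ± 0.14 (adjusted p = 0.075) and A_52_P306327 by -0.26 ± 0.28 (adjusted p = 0.56). Igfals differed by 0.11 ± 0.18 (adjusted p = 0.69).

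Age was compared next. Of the 19 probes 8 were called, 42.1%, against 30.5% of all probes, 4 higher at 20 weeks and 4 lower (16.9 and 13.6% of all). Igfals fell most, by 0.98 ± 0.18 (limma adjusted p = 0.000468). At 20 weeks it ran from -1.69 through -0.53 to 0.01 in Cre livers and from -1.69 through -1.12 to -0.61 in floxed livers, and at 10 weeks from -0.29 through 0.01 to 0.36 in Cre livers and from -0.28 through 0.22 to 0.68 in floxed livers. The ages did not overlap in floxed livers and overlapped in Cre livers, and the share of all probes without overlap was not counted. Stat5a (-0.31 ± 0.062) and the Stat5b probes A_52_P53698 (-0.32 ± 0.058) and A_51_P281938 (-0.38 ± 0.093) fell as well, but with median centring Stat5a and A_52_P53698 turned to 0.15 and 0.18, without a call. The receptor was higher at 20 weeks in 3 of its 5 probes, A_52_P680935 (0.45 ± 0.068), A_52_P680941 (0.51 ± 0.078) and A_52_P54106 (0.43 ± 0.12), and so was Jak2 (0.30 ± 0.056). With median centring these 4 were 0.92, 0.998, 0.86 and 0.69 and Igfals -0.49, all still called, beside the shift of all probes given above. The Jak2 call was lost with Cy5 alone (0.12, adjusted p = 0.221), and those of Ghr A_52_P54106 (0.44, adjusted p = 0.151) and Stat5b A_51_P281938 (-0.36, adjusted p = 0.0638) with the slide as a random block. No probe of Igf1, Socs2, Cish or Bcl6 passed the test for age.

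Age went with slides and scan days, with no slide that held both ages, so age and slide cannot be told apart. A difference between ages in the genotype effect was called for 1 of 19 probes, 5.26%, against 9.05% of all probes. It was the Igf1 probe A_52_P306327, at -1.57 (adjusted p = 0.0376), and under 6 of 9 alternative settings no member was called. At 20 weeks its mean was -0.71 ± 0.72 in Cre livers and 0.33 ± 0.42 in floxed livers (SD, n = 6 each), and at 10 weeks -0.14 ± 0.78 in Cre livers and -0.67 ± 0.43 in floxed livers. The other 3 Igf1 probes did not pass.

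**Figure D4:**
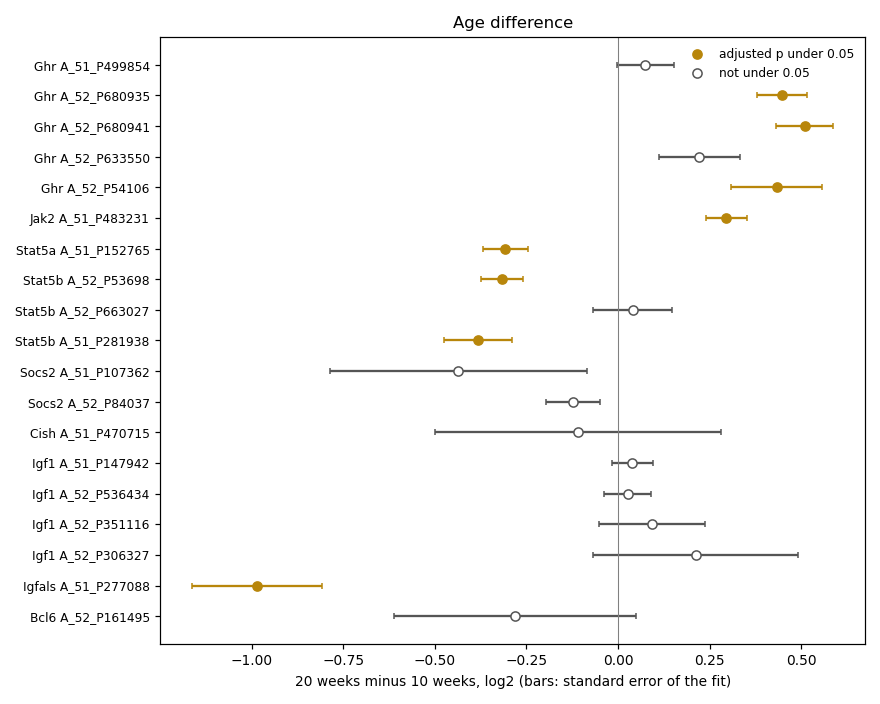
Age difference of the 19 kept member probes, 20 minus 10 weeks (horizontal axis, log2), with bars for the fitted standard error (24 arrays). The 8 filled points have a limma adjusted p under 0.05, from Igfals at -0.98 to Ghr A_52_P680941 at 0.51.

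The members were then compared with each other from array to array. Over 36 pairs of the 9 brightest probes, 7 correlated with a permutation p under 0.05 after Benjamini-Hochberg adjustment. Arrays were permuted across ages and slides, and the share that would pass among pairs of other probes was not computed. Socs2 and Cish varied together, with Pearson r = 0.63 (permutation p = 0.00089, adjusted 0.0107) and Spearman rho = 0.49 (p = 0.0153, adjusted 0.0796) over 24 arrays. Without the 2 arrays farthest from the median of Socs2 r was 0.59, and without those farthest in Cish 0.40. It was 0.74 within 20 weeks, 0.52 within 10 weeks, 0.71 within Cre and 0.65 within floxed livers (12 arrays each), 0.61 within slides (23 arrays), and 0.75 for what the fit left over. For Cish and Bcl6 the sign was negative, with r = -0.51 (p = 0.0151, adjusted 0.0606) and rho = -0.51 (p = 0.0175, adjusted 0.0796) over 22 arrays, which did not pass the adjustment. Without the 2 arrays farthest in Cish r was -0.32, within slides -0.63, and it was -0.51 within 20 weeks and -0.53 within 10 weeks. Stat5a and Stat5b correlated at r = 0.66 (p = 0.00059, adjusted 0.0106, rho = 0.64 with p = 0.00126, adjusted 0.0227), with 0.47 without the 2 arrays farthest in Stat5a, 0.56 within 20 weeks, 0.48 within 10 weeks and 0.59 within slides. The strongest of the 36 pairs, Jak2 with Igfals (r = -0.70, p = 0.00011, adjusted 0.00396, rho = -0.73 with p = 9e-05, adjusted 0.00324), was -0.63 without the 2 arrays farthest in Jak2, -0.36 within 20 weeks, -0.30 within 10 weeks and -0.27 within slides. Stat5b and Bcl6 correlated at r = 0.57 (p = 0.00546, adjusted 0.0328, rho = 0.61 with p = 0.00352, adjusted 0.0317) over 22 arrays, with 0.51 without the 2 arrays farthest in Stat5b, 0.61 within 20 weeks, 0.51 within 10 weeks, 0.51 within slides, -0.19 within Cre livers, 0.68 within floxed livers and 0.19 for what the fit left over. Stat5a and Igfals correlated at r = 0.62 (p = 0.00137, adjusted 0.0123, rho = 0.60 with p = 0.00244, adjusted 0.0293), with 0.52 without the 2 arrays farthest in Stat5a, 0.10 within 20 weeks, 0.64 within 10 weeks and 0.25 within slides. Jak2 with Stat5a (r = -0.56, p = 0.00486, adjusted 0.0328) and Ghr with Igf1 (r = -0.54, p = 0.00847, adjusted 0.0436) did not pass by rho (-0.49, adjusted 0.0796, and -0.40, adjusted 0.197), and the Igf1 probe is the one with saturated spots. All points share the reference pool.

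**Figure D5:**
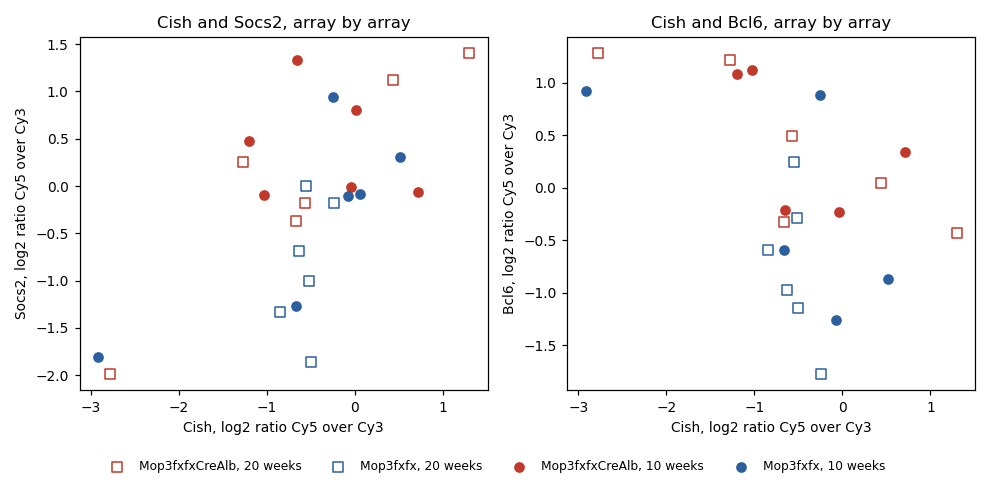
Log2 ratio of Cish (horizontal axis) against Socs2 (left) and Bcl6 (right), 1 point per array, for Mop3fxfxCreAlb (red) and Mop3fxfx (blue) at 20 weeks (open squares) and 10 weeks (filled circles). The Cre array with Cish at -2.78 and the floxed array with Cish at -2.92 are also low in Socs2 and high in Bcl6.

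Outside the members, the pattern most like that of each gene over the arrays was described by Pearson r. For Igfals it was Scrn2 at 0.97, for Jak2 Shprh at 0.90, for Stat5b Rell1 at 0.88, for Stat5a Zbtb7c at 0.86 and for Ghr Ilf2 at 0.86 (23 arrays). For the Igf1 probe with saturated spots it was Lrrc61 at 0.81, for Socs2 Ppp1cb at 0.80, for Cish Chac1 at 0.75 and for Bcl6 Irs1 at 0.69 (22 arrays). These were the highest of all genes measured and carry no test.

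Other genes of the pathway were counted from lists of 1 probe per gene, with the median of all kept genes at -0.005 and 23.6% of them called, 11.7% higher and 11.8% lower in Cre livers. Of 22 JAK-STAT genes 2 were higher in Cre livers and 1 lower by the limma test (13.6%, below that share; median -0.095). The prolactin receptor Prlr rose by 0.62 ± 0.17, while Stat6, of interleukin signalling, fell by 0.60 ± 0.12 in all 12 pairs. Of 13 genes of the IGF axis 3 rose and 2 fell (38.5%, median -0.057). Irs1, which relays the insulin and IGF signal, rose by 0.82 ± 0.12, and the binding proteins Igfbp1 and Igfbp3 by 1.09 ± 0.31 and 0.30 ± 0.062, while the insulin receptor Insr fell by 0.51 ± 0.16 and Igfbp5 by 0.34 ± 0.10. A dimmer probe differed by 0.227 for Irs1, 0.076 for Igfbp3, 0.014 for Insr and 0.074 for Igfbp5. Of 10 genes that growth hormone induces quickly 0 rose and 4 fell (40.0%, median -0.318), Pim1, Lifr, Pik3r1 and Onecut1, by 0.32 to 0.47. For each of these 4 another probe differed by between 0.03 and 0.125 in the other direction. Serpina3k of the same list was saturated in Cy5 on 12 Cre and 12 floxed arrays. With median centring no gene of the JAK-STAT and IGF lists was called, and 1 of the quickly induced genes was lower.

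The sex-biased genes that Stat5 and Bcl6 govern in mouse liver went both ways. Of 15 male-biased genes 5 rose and 2 fell (46.7%, median 0.265), Elovl3 by 1.80 ± 0.11 and Serpina12 by 1.41 ± 0.14 among the first and the cytochrome Cyp4a12a (-0.61 ± 0.085) among the second. Saturation in Cy5 limits what several of these probes could show. It was seen for Mup1 and Mup3 (9 Cre and 12 floxed arrays each), Gstp1 (11 and 12), Cyp2d9 (8 and 12) and Selenbp2 (9 and 11). Nudt7 (7 and 11), Cyp7b1 (7 and 5) and Elovl3 (6 Cre arrays) were saturated too. Of 17 female-biased genes 1 rose and 4 fell (29.4%, median -0.162). Cyp2a4 (-1.91 ± 0.22) and Tox (-0.91 ± 0.086) were among those that fell, and Ntrk2 was the one that rose (4.62 ± 0.23). Over 3 Ntrk2 probes the difference ran from 0.024 to 4.617. In this list Cy5 was saturated for Cyp2a4 (5 floxed arrays), Cyp3a41a (10 Cre and 12 floxed), Cyp3a16 (6 and 6) and Cyp3a44 (7 and 8). Without the array that held Xist and the one alone on its slide 3 of the female-biased genes rose and 6 fell (median -0.060). Of 5 lipid genes that are raised in mouse livers without Jak2 or Stat5, Lpl rose by 3.81 ± 0.20 and Pparg, Cd36 and Mogat1 fell, by 0.55, 0.56 and 0.48 (80.0% called, median -0.476). Of 40 measured marker genes of 7 cell types, 6 were higher in Cre livers and 1 lower (17.5%, below the share of all genes). The cholangiocyte genes Sox9 (1.06) and Spp1 (1.39), the stellate cell genes Lrat (0.57) and Lum (0.59), Lyve1 of endothelium and Mpeg1 of macrophages were higher, and Hnf4a of hepatocytes was lower (-0.41). Over 3 probes each, the difference ran from 0.065 to 1.105 for Sox9 and from -0.41 to 0.07 for Hnf4a. A dimmer probe differed by 0.184 for Lrat, 0.14 for Lyve1 and 0.187 for Mpeg1. The hepatocyte markers Alb, Tat and Apoa1 were saturated in Cy5 on 12, 8 and 7 Cre arrays and 12, 12 and 11 floxed arrays. The other markers of these lists were not called, among them the cholangiocyte keratins Krt7 (-0.08) and Krt19 (-0.08) and Epcam (0.0056), and the median difference was 0.006 for the cholangiocyte list, 0.052 for stellate cells, -0.030 for endothelium, 0.110 for macrophages and -0.083 for hepatocytes. The list medians of cholangiocyte markers lay between -0.21 and 0.21 on Cre arrays and between -0.56 and 0.51 on floxed arrays. Those of stellate cell markers lay between -0.77 and 0.15 on Cre arrays and between -0.70 and 0.05 on floxed arrays, and those of macrophages between -0.88 and 0.50 on Cre arrays and between -0.68 and 0.28 on floxed arrays. The part of other cell types in the values of Bcl6, Socs2 and Stat5b was not tested.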

How the data were processed

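Each array is a 2-colour Agilent scan; the deposited scanner files hold mean and background intensity per spot and channel, per the file headers from Agilent Feature Extraction (version 9.1.3.1). The deposited log10 ratio of Cy5 over Cy3, normalised by that software per the file headers, served as an alternative. Intensities were corrected with normexp (offset 50) and loess within arrays, with control spots at weight 0, outlier spots left out and spots of a probe averaged. Probes stayed if Cy3 stood well above background on 4 or more of the 24 arrays. The log2 ratios were fitted with limma 3.58.1 (R 4.3.3; statmod 1.5.0 and the package data.table, version 1.17.8) to genotype x (mean, cosine, sine of 24 h) plus age, with Benjamini-Hochberg over 27825 probes and calls at an adjusted p under 0.05. The fit was tested on simulated data. The number of arrays limits the precision. The members, lists and rules were chosen with earlier results of these data known. All member probes are reported, the brightest standing for a gene, and of each list the called genes with the smallest p. Nothing says that pools of 1 group came from separate cohorts. Each genotype, age and time had 1 array, so p-values rest on the spread of arrays around the fit. That spread mixes differences between pools with what the fit leaves out, such as slides and courses other than a 24 h cosine. Alternatives were normalisation, background, filter, channel, slide, scan, pairing, weights, ages and arrays left out. A called gene of the JAK-STAT list is not reported here.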

Additional observations from a re-analysis of the deposited data

Results flagged for a closer look

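Of 40 series of 6 arrays or fewer (10 probes, 4 groups), 2 held a value whose gap to its neighbour exceeded Dixon's limit, a number that chance gives for about 1 in 20 series. The brightest Ghr probe was at -0.36 on the 20-week floxed array at ZT0, with the nearest of its series at 0.28. Cish was at -2.92 on the 10-week floxed array at ZT0, with the nearest at -0.67. Both stand at ZT0, and each series runs over the 6 times of day.

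The genotype difference of the Igf1 probe A_52_P306327 differed between the ages by -1.57, as tested with the interaction term in limma (adjusted p = 0.0376). The 3 other Igf1 probes did not show it past the test.

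Xist, which no comparison used, stood at a log2 ratio of 4.35 on the 20-week floxed array at ZT4, with Cy5 at 2826 and Cy3 at 58.5, against Cy5 between 42.9 and 145 on the 23 other arrays. All 4 Xist probes were highest there.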

How the results depend on the processing

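The higher Stat5b level in Cre livers kept its direction and its call in 16 of 19 alternatives and without each of the 24 arrays (0.37 to 0.42). Exceptions were median centring (0.17, adjusted p = 0.594), the 10-week arrays alone (0.38, adjusted p = 0.0509) and the dyes as labelled, which turn the sign.

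Against 3 members called for genotype, 0 were called with median centring and with the 10-week arrays alone (713 of all probes), 1 with the deposited log ratio, with the slide, the scan day or a random slide as a block, and 5 with array weights and with the 20-week arrays alone. Leaving out 1 array gave 2 to 3. Against 2 calls for rhythm in floxed livers, 0 were made with median centring, the deposited log ratio, and the 10-week or the 20-week arrays alone, and 1 with no background correction, Cy5 alone, no filter, without both 20-week ZT0 arrays, and without the Xist array and the array alone on its slide, an alternative chosen after seeing the data. Leaving out 1 array gave 0 to 2. Rhythm in Cre livers and the rhythm difference gave 0 to 0 members when 1 array was left out. The 8 age calls were 4 with genes in place of probes and 8 to 9 with 1 array left out. The 2 calls at single times were 0 with median centring, the deposited log ratio and the slide as a block, and 1 with Cy5 alone. The 1 call for age by genotype was 10 with median centring, 3 with array weights and 0 with no background correction, the deposited log ratio, Cy5 alone, no filter, genes in place of probes and the slide as a block.

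Over all probes, genotype calls were 6054, against 899 with median centring, 2361 with the slide and 2618 with the scan day as a block and 10170 with array weights. Age calls were 8485, against 2535 with a random slide. A fixed slide or scan day, or blocks of 1 age and time, could not be fitted for age. With arrays of 1 age and time as a block (pairing), Stat5b stayed at 0.39 (adjusted p = 0.000188), Ghr A_52_P680941 at -0.26 (adjusted p = 0.045) and Bcl6 was 1.05 (adjusted p = 0.0656), so its call was lost.

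Apart from the dyes as labelled, the called differences that changed sign were Stat5b at ZT8 and the age differences of Stat5b and Stat5a, all with median centring. The genotype differences over the day that did so had missed the test. With median centring they were -0.041 for Ghr, -0.20 for Stat5a, -0.16 for Cish and -0.12 for Igfals, and the age differences of Stat5b and Stat5a were 0.18 and 0.15 and Stat5b at ZT8 was -0.048. Cish was -0.46 with the slide, -0.65 with the scan day and -0.043 with a random slide as a block and -0.043 at 20 weeks alone. Igfals was -0.31, -0.25 and -0.088 under those blocks, -0.19 at 10 weeks alone and -0.17 with Cy5 alone, where Jak2 was 0.081. Stat5a was -0.0016 at 20 weeks alone. Leaving out 1 array gave -0.17 to 0.31 for Cish and -0.0098 to 0.042 for Stat5a. With the dyes as labelled the differences were -0.16 for Ghr, 0.11 for Jak2, -0.024 for Stat5a, -0.39 for Stat5b, -0.81 for Socs2, -0.073 for Cish, 0.10 for Igf1, -0.11 for Igfals, -0.94 for Bcl6 and 0.26 for Ghr A_52_P680941. The cause of these changes was not tested. Saturated spots of Igf1 and of several list genes, and dim probes such as Socs2 A_52_P84037, limit what could be seen.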
